A study of Mus musculus with 2 samples.

Results

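The peroxiredoxins Prdx1, Prdx2, Prdx3, Prdx4, Prdx5 and Prdx6, the cytosolic thioredoxin Txn1 and its reductase Txnrd1 were followed in single-cell RNA profiles of mouse bone marrow, as 8 of the 56748 genes counted. Each symbol matched 1 row of the gene list. The genes were selected on the Prdx4 level, which was high in granulocyte-monocyte progenitors (GMPs) of the knockout library, so the values of the 8 genes in the GMP comparison are given as a description that supports nothing. The data hold 1 library of wild-type (WT) C57BL/6 mice and 1 library of C57BL/6 mice that carry a conditional knockout (cKO) of Nat10, the enzyme that acetylates cytidine in RNA. Both libraries were lineage-depleted (Lin-) bone marrow cells, untreated as far as the labels say. The series text speaks of 5 mice, but no label ties a cell to a mouse, and the sources used here do not give the Cre driver, age or sex. With 1 library per genotype there was no replicate and no test, and every interval below is a 95% interval that covers counting error only.

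Peroxiredoxins are enzymes that reduce hydrogen peroxide and organic peroxides through a reactive cysteine. Prdx1, Prdx2 and Prdx6 act in the cytosol, Prdx3 in mitochondria, Prdx5 in mitochondria, peroxisomes and cytosol, and Prdx4 in the endoplasmic reticulum, where it passes oxidising equivalents on to protein disulfide isomerases during the folding of secreted proteins. Most of them are returned to the reduced state by thioredoxin, which is in turn reduced by thioredoxin reductase with NADPH. Red cells are known for very large amounts of Prdx2, which guards haemoglobin against oxidation, and several members are targets of the transcription factor NRF2 through antioxidant response elements.

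Promoter windows of 300 bases from RefSeq (build GRCm38.p6) were found for 7 of the 8 genes. They were searched on both strands for the core of the antioxidant response element, TGACNNNGC. It was found in the windows of Prdx1 and Txnrd1, and 12.39% of all 32851 promoter windows held it too. The 2 stretches are shown because the NRF2 genes are described further on, with the bases that match the core (read on the opposite strand) in capitals:
Prdx1 (chr4:116685446-116685494, plus strand): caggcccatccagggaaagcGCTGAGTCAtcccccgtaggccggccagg
Txnrd1 (chr10:82859094-82859142, plus strand): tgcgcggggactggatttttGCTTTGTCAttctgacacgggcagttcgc
The match began 133 bases before the annotated start in Prdx1 and 92 bases before it in Txnrd1, there in 1 of its 3 windows. A GATA motif (AGATAA), the ER stress element and an XBP1 and ATF6 motif (TGACGTGG) had no match in the members' windows. They occurred in 11.18%, 0.1187% and 0.6758% of all windows. A match of letters describes the window only.

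The WT library kept 11945 cells with 262788089 UMIs (unique molecular identifiers, which count captured RNA molecules) and the cKO library 10695 cells with 253860830 UMIs, at medians of 18315 and 21450 UMIs per cell. The 2 libraries shared 40 of the barcodes that passed the filters, and without them the log2 ratio of Prdx4 in GMP-like cells was again 1.32. Nat10 itself was at 47.0 counts per 1000000 UMIs (CPM) in WT and 38.7 CPM in cKO, and at 36.3 and 26.8 CPM in GMP-like cells. These are 3′ tags, and the sources used here do not say which part of Nat10 was removed, so they do not check the deletion. Clusters made without the 8 genes and without the related redox genes were named from marker lists into classes that end in "-like", and 14 classes held 30 or more cells per library. Unnamed clusters held 30.3% of the WT and 32.5% of the cKO cells, and these stay in the values over all kept cells.

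Over all kept cells, 7 of the 8 genes were higher in the cKO than in the WT library, and none by as much as 0.5 on the log2 scale, the fold used for calls. Of the 19008 genes with at least 100 UMIs, 37.8% had a ratio above 0, 6.2% were higher by that fold and 15.7% were lower. The median log2 ratio of cKO over WT was 0.23 for the 8 genes and −0.11 for all genes. TMM scaling, which sets aside the shift shared by most genes, moved every ratio over all kept cells up by 0.11, and under it 9.46% of all genes were higher and 11.6% lower by the fold. The genes nearest the fold were Prdx3, at 63.5 CPM in WT and 89.1 CPM in cKO, and Prdx6, at 294 and 376 CPM. Prdx5 alone was lower, at 166 CPM in WT and 141 CPM in cKO.

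The same direction was seen in most classes. Ratios were taken where a class held 100 or more cells per library, 11 classes in all, which gave 87 values with at least 100 UMIs behind them. Of these, 75 were above 0, with 61 intervals wholly above 0 and 4 wholly below it. The share of all genes above 0 ran from 34.0% to 54.1% over the 11 classes, and was 36.1% in GMP-like cells. The counts of members include the GMP-like values, which are a description only. Ratios of at least 0.5 were reached 11 times, by Prdx3 in 6 classes, Prdx4 in 3 and Prdx2 in 2, and ratios of −0.5 or lower 0 times. Of the 75 values above 0, 63 stayed above 0 under every other way of processing that was tried and 12 did not. Of the 11 past the fold, 6 stayed past it throughout. The other 5 fell under it in at least 1 alternative, to 0.24 for Prdx3 in basophil/mast-like, 0.39 for Prdx3 in megakaryocyte-like, 0.49 for Prdx3 in GMP-like, 0.49 for Prdx2 in basophil/mast-like and 0.32 for Prdx4 in stromal/endothelial-like cells. For all genes the shares higher and lower by that fold depended on the class. They were 5.47% and 6.03% in basophil/mast-like, 3.68% and 7.51% in conventional dendritic-like, 2.12% and 4.44% in erythroblast-like, 1.9% and 7.5% in erythroid progenitor-like, and 2.41% and 14% in HSC/MPP-like cells (stem cells and multipotent progenitors). They were 10.3% and 16.1% in megakaryocyte-like, 3.2% and 9.31% in monocyte-like, 2.24% and 7.39% in plasmacytoid dendritic-like, 8.06% and 7.23% in stromal/endothelial-like, 10.1% and 5.17% in T/NK/ILC-like, and 3.62% and 12.6% in GMP-like cells (7.21% and 7.79% under TMM scaling). Of the members, 3 passed the higher fold in basophil/mast-like cells, 2 each in GMP-like and T/NK/ILC-like cells, and 1 each in HSC/MPP-like, megakaryocyte-like, monocyte-like and stromal/endothelial-like cells. Among the 30 clusters that held 50 or more cells per library, Txn1 was higher in cKO in 29, Prdx2, Prdx3 and Prdx4 in 28 each, Prdx1 in 27, Prdx5 in 23, Prdx6 in 21 and Txnrd1 in 19. Shares of all genes by cluster are not given here, so these counts have no background beside them.

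**Figure D1:**
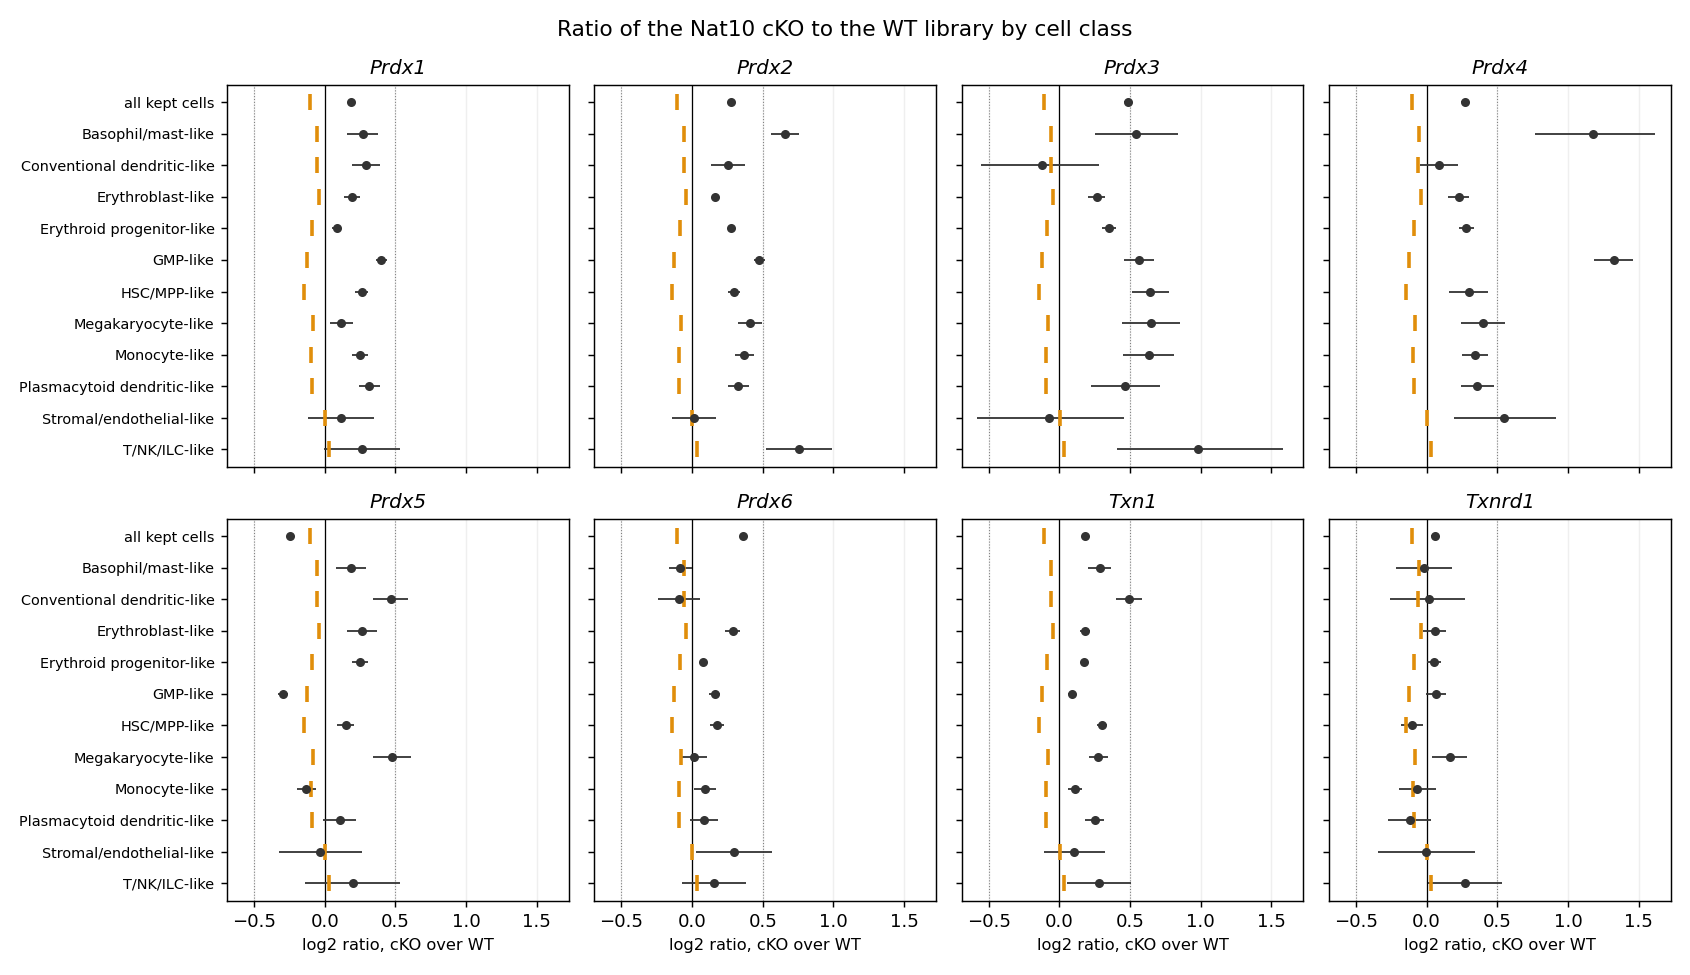
Each panel plots, for 1 gene, the log2 ratio of cKO over WT (x axis) over all kept cells and in the cell classes (y axis), with points for the ratio, bars for its 95% counting interval and orange ticks for the median of all genes. Dotted lines mark ratios of −0.5 and 0.5. Prdx4 in GMP-like cells (1.32) and in basophil/mast-like cells (1.18) lies farthest to the right, and Prdx5 in GMP-like cells (−0.30) farthest to the left.

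Prdx2, the red cell enzyme, was high in the erythroid lineage. It stood at 2204 CPM in erythroblast-like and 1181 CPM in erythroid progenitor-like cells of the WT library, against 129 to 340 CPM in the other 12 classes. The cKO library kept both erythroid classes on top, with 2463 CPM and 1432 CPM, and its other classes ranged from 145 to 407 CPM. The erythroid levels do not overlap those of any other class in either library. Among those other 12 classes most neighbours in the order had overlapping intervals.

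Between the libraries, Prdx2 was higher in cKO in all 11 classes with a ratio, but in stromal/endothelial-like cells the ratio of 0.02 became −0.26 with every cell weighed alike. It was highest above WT in T/NK/ILC-like cells, at 129 CPM in WT and 218 CPM in cKO, a log2 ratio of 0.76 (0.52 to 0.99). Basophil/mast-like cells followed, with 206 and 325 CPM and a log2 ratio of 0.66 (0.56 to 0.75). No other class had a Prdx2 ratio past the fold. The T/NK/ILC-like class joined a cluster with Ncr1 among its leading genes (33.4% of the WT and 62.5% of the cKO cells) and one with Cd3e (66.6% and 37.5%), and the Prdx2 ratios in them were 0.66 and 0.62. The sum of 4 haemoglobin genes, a sign of erythroid RNA in other cells, was 861 CPM in WT and 798 CPM in cKO in T/NK/ILC-like cells, and 572 and 733 CPM in basophil/mast-like cells, and its part in the Prdx2 ratios was not tested. In the erythroid classes, where Prdx2 is abundant, the ratios were smaller, with 0.16 (0.15 to 0.18) in erythroblast-like and 0.28 (0.26 to 0.29) in erythroid progenitor-like cells.

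Prdx1, which also acts as a chaperone and in redox signalling, was high in other cells than Prdx2. It was highest in monocyte-like cells, at 381 CPM in WT and 454 CPM in cKO, and next in plasmacytoid dendritic-like cells, at 343 and 427 CPM. Neutrophil-like cells had the lowest level, 33.8 and 39.1 CPM, from 8 and 10 UMIs. The order of the 14 classes was much alike in both libraries, with 10 classes at the same rank. The ratio was above 0 in all 11 classes and ran from 0.09 (0.05 to 0.12) in erythroid progenitor-like to 0.40 (0.36 to 0.44) in GMP-like cells. It turned to −0.06 in conventional dendritic-like cells with classes by marker score and in megakaryocyte-like cells with every cell weighed alike.

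Prdx6, the 1-cysteine member that also has phospholipase activity, varied less between classes. Levels in WT ran from 109 CPM in stromal/endothelial-like to 384 CPM in erythroid progenitor-like cells, and in cKO from 134 to 405 CPM with the same classes at both ends. In the erythroid lineage it was thus opposite to Prdx2, lower in erythroblast-like cells (163 CPM in WT and 199 CPM in cKO) than in their progenitors. Its ratios were small in every class, from −0.09 in conventional dendritic-like to 0.29 in stromal/endothelial-like cells. The ratio over all kept cells, 0.36, exceeded that of each of the 11 classes. With the cKO clusters weighted to the WT mix it was 0.13, and an unnamed cluster that has Car1, an erythroid carbonic anhydrase gene, among its 10 leading genes, with 246 WT and 845 cKO cells, held Prdx6 at 560 CPM in WT and 586 CPM in cKO.

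**Figure D2:**
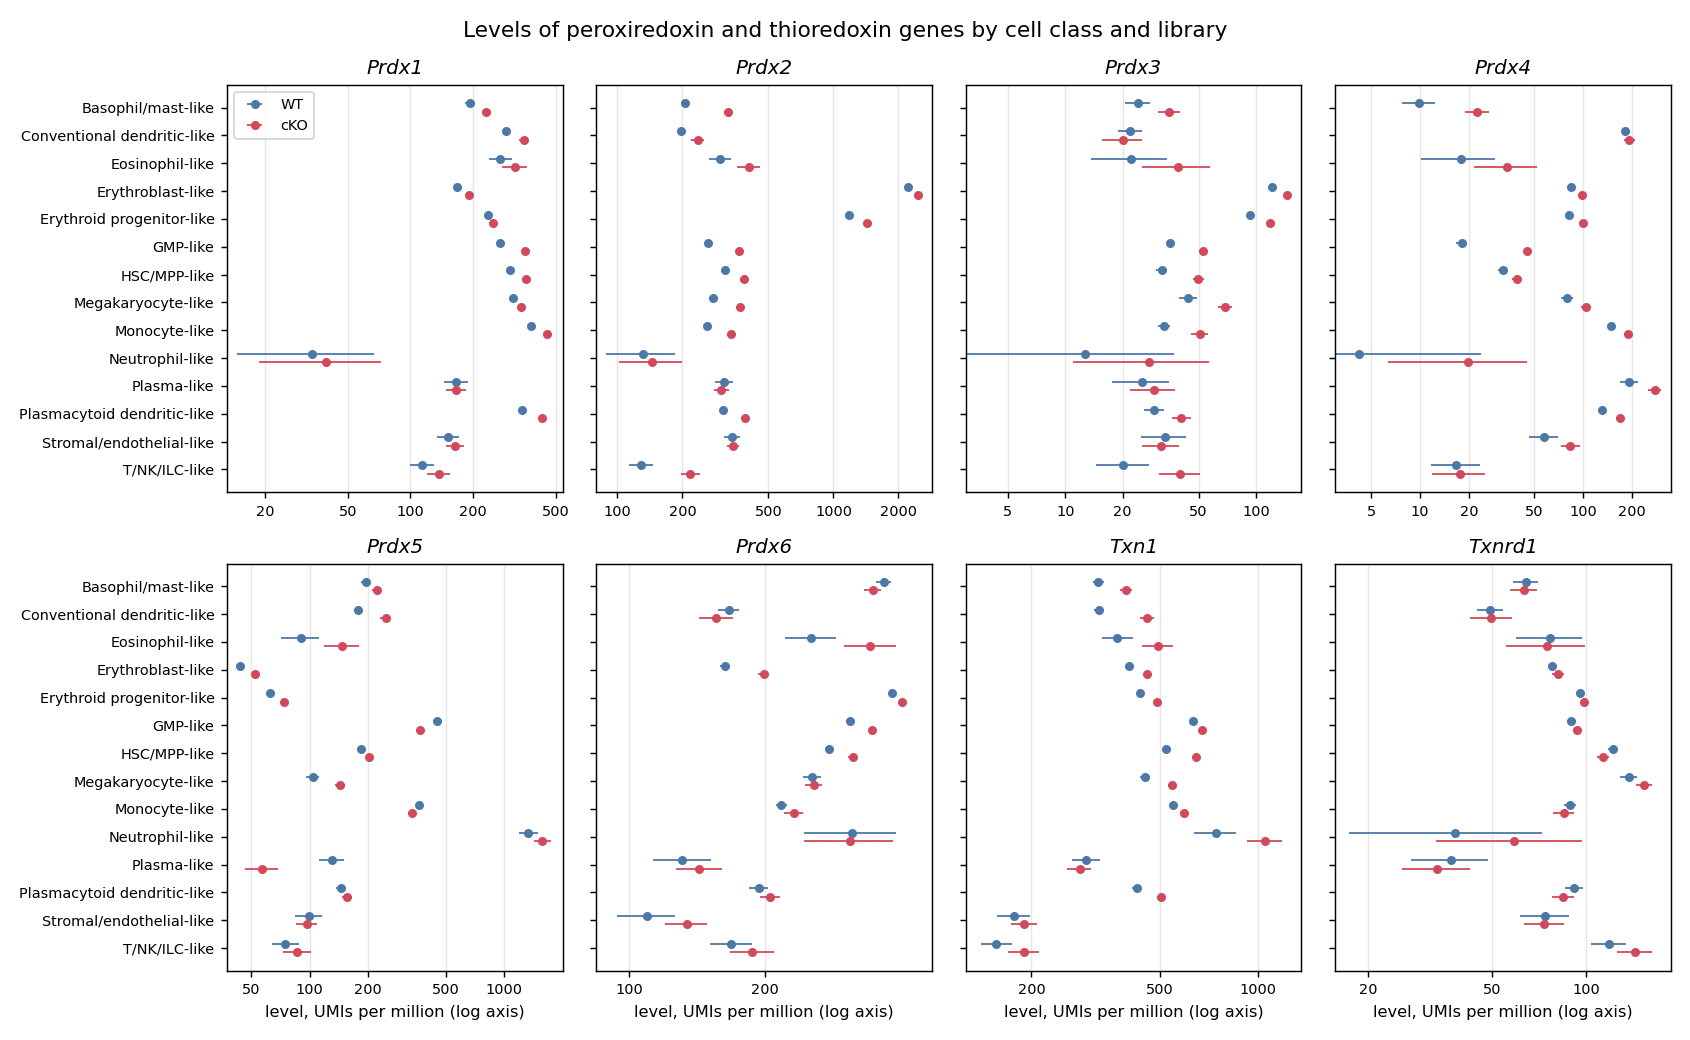
Each panel plots the level of 1 gene in CPM (x axis, log scale, which differs between panels) in 14 cell classes (y axis), in blue for the WT and red for the cKO library, with 95% Poisson intervals. Prdx2 and Prdx3 are highest in the 2 erythroid classes, Prdx5 in neutrophil-like cells and Prdx4 in plasma-like cells, in both libraries.

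The mitochondrial Prdx3 had its highest levels in the erythroid classes, as Prdx2 did. It was highest in erythroblast-like cells, at 121 CPM in WT and 145 CPM in cKO, then in erythroid progenitor-like cells, at 92.6 and 118 CPM, and then in megakaryocyte-like cells, at 44.0 and 69.0 CPM. Over the 22 values of 11 classes in 2 libraries, Pearson's r of log2 levels was 0.92 between Prdx3 and Prdx2, the highest of the 28 pairs of the 8 genes. These points share 2 libraries and their depth, so the value is a description. The pair was not compared without the erythroid classes. In WT Prdx2 was lowest in T/NK/ILC-like and Prdx3 in neutrophil-like cells. In cKO Prdx2 was lowest in neutrophil-like and Prdx3 in conventional dendritic-like cells.

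Prdx3 was the gene that most often passed the fold between the libraries. In HSC/MPP-like cells it stood at 32.0 CPM in WT and 49.9 CPM in cKO, a log2 ratio of 0.64 (0.51 to 0.77). Megakaryocyte-like cells had a ratio of 0.65 (0.44 to 0.85) and monocyte-like cells 0.64 (0.45 to 0.82). In the megakaryocyte-like class, a cluster with Pf4 among its leading genes held 237 of the 304 WT and 162 of the 322 cKO cells and had a Prdx3 ratio of 0.71, and a shallow Ppbp-led cluster held the rest, with 0.04 (−0.78 to 1.10). Basophil/mast-like cells reached 0.55 (0.25 to 0.84) and T/NK/ILC-like cells 0.98 (0.40 to 1.58), the latter from 41 and 68 UMIs. In the erythroid classes, where its level is highest, the ratios were 0.26 and 0.35. Conventional dendritic-like and stromal/endothelial-like cells had ratios of −0.12 and −0.07, with intervals that include 0.

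Prdx5 was high in myeloid and low in erythroid classes, and it was the 1 gene lower in cKO over all kept cells. Neutrophil-like cells held 1329 CPM in WT and 1573 CPM in cKO, from 33 and 30 cells. GMP-like cells followed at 453 and 368 CPM and monocyte-like cells at 367 and 335 CPM, while erythroblast-like cells had only 43.9 and 52.7 CPM. The 2 classes with a negative ratio whose interval excludes 0 were thus those with the highest levels among the 11, with −0.30 (−0.33 to −0.26) in GMP-like and −0.13 (−0.19 to −0.06) in monocyte-like cells. Positive ratios whose intervals exclude 0 were found in 6 classes, up to 0.47 (0.34 to 0.61) in megakaryocyte-like cells. There the Pf4 cluster had a ratio of 0.42 and the Ppbp-led cluster −0.32 (−0.75 to 0.16), and the class had 0.26 less the median of genes of like span.

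The numbers of cells in the high classes differed between the libraries. Monocyte-like cells numbered 697 in WT and 253 in cKO, and with the cKO clusters weighted to the WT mix the log2 ratio of Prdx5 was 0.04 in place of −0.24. Within the GMP-like class, neutrophil granule markers such as Camp, Ltf and Ngp summed to 1983 CPM in WT and 717 CPM in cKO, with all 11 detected in both. By cluster, Prdx5 was at 341 CPM in WT and 288 CPM in cKO in the GMP-like cluster with Prtn3 among its leading genes. It was at 544 and 512 CPM in the Fcnb-led one. The part of maturing granulocytes in the GMP ratio was not tested.

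Prdx4, the secretory-pathway enzyme, was spread widely over the classes. In WT it stood at 193 CPM in plasma-like, 182 in conventional dendritic-like, 149 in monocyte-like and 131 in plasmacytoid dendritic-like cells. Erythroblast-like (84.3 CPM), erythroid progenitor-like (82.6 CPM) and megakaryocyte-like cells (79.8 CPM) had overlapping intervals in the middle, above stromal/endothelial-like cells at 57.3 CPM and HSC/MPP-like cells at 32.1 CPM. GMP-like (18.0 CPM), eosinophil-like (17.8 CPM), T/NK/ILC-like (16.7 CPM), basophil/mast-like (9.9 CPM) and neutrophil-like cells (4.2 CPM, from 1 UMI) formed the low end, each overlapping its neighbour.

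In cKO the order was similar, with Spearman's rho of 0.96 between the libraries over the 14 classes. Plasma-like cells were at 276 CPM, conventional dendritic-like at 193, monocyte-like at 189 and plasmacytoid dendritic-like at 168 CPM. GMP-like cells, at 45.1 CPM, moved above HSC/MPP-like cells, at 39.4 CPM. T/NK/ILC-like cells were lowest, at 17.6 CPM. Prdx4 is known to be abundant in antibody-secreting cells.

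Prdx4 was higher in cKO in all 10 classes that had at least 100 UMIs of it. With classes by marker score, 2 of these turned, to −1.02 in conventional dendritic-like and −0.057 in plasmacytoid dendritic-like cells. In GMP-like cells it rested on 643 UMIs in WT and 1426 UMIs in cKO, and the log2 ratio was 1.32 (1.19 to 1.46). It was higher in rank than 99.9% of all genes there. This is the value that led to the choice of the 8 genes. Prdx3 (0.56, 0.46 to 0.67) was the other member past the fold in that class. In basophil/mast-like cells 72 UMIs in WT and 139 in cKO gave 9.9 and 22.4 CPM, and the log2 ratio was 1.18 (0.76 to 1.62), or 0.64 with called doublets kept. In stromal/endothelial-like cells the levels were 57.3 and 83.9 CPM, with a log2 ratio of 0.54 (0.19 to 0.91) that was under the fold in 5 of 13 alternatives. Ratios in the other 7 classes ran from 0.09 (−0.05 to 0.22) in conventional dendritic-like to 0.40 (0.24 to 0.55) in megakaryocyte-like cells.

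The GMP-like class joined 2 clusters that differ in Prdx4 and in their share of the class. The Prtn3 cluster, with the primary granule genes Prtn3, Elane, Ctsg and Mpo among its 10 leading genes, held 41.2% of the WT and 61.7% of the cKO cells of the class. There Prdx4 was at 32.3 CPM in WT and 64.0 CPM in cKO, a log2 ratio of 0.98 (0.84 to 1.13). The cluster led by Fcnb and Wfdc21, of more mature granulocyte precursors, held the rest, and Prdx4 was at 6.3 and 11.2 CPM, a log2 ratio of 0.84 (0.47 to 1.21). With the cKO clusters weighted to the WT mix the ratio of the class was 0.96. When each cell was instead given the class of its highest marker score, it was 0.67.

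**Figure D3:**
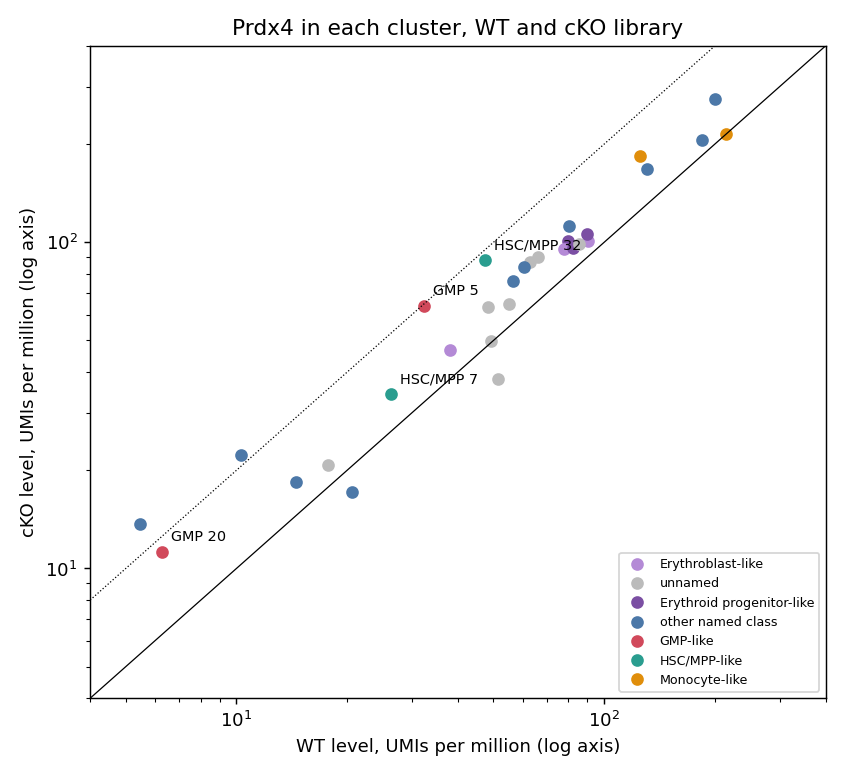
Each point is a cluster of 50 or more cells per library, with the Prdx4 level in CPM in WT (x axis) and in cKO (y axis), both on log scales, and colour for the class. The solid line marks equal levels and the dotted line a doubling, and 28 of the 30 clusters lie above the solid line, with the Prtn3 cluster of GMP-like cells (GMP 5) near the dotted line.

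Markers of the cell types richest in Prdx4 were summed in the Prtn3 cluster. There 10 monocyte markers summed to 2932 CPM in WT and 2026 CPM in cKO, with none at 0. The 10 plasmacytoid dendritic markers summed to 326 and 315 CPM with 1 at 0 in each library, the 10 conventional dendritic markers to 43.3 and 46.7 CPM with 0 and 2 at 0, and the 8 plasma cell markers to 107 and 94.8 CPM with 1 at 0 in each. Elane and Mpo, which define the class, were themselves lower in cKO in that cluster, at 5803 and 3369 CPM for Elane and 7302 and 4748 CPM for Mpo. Both were higher in the Fcnb-led cluster, at 10902 and 9061 CPM for Elane and 9801 and 6943 CPM for Mpo. The monocyte markers summed to less there, 1428 and 812.5 CPM. The part of other cell types in the Prdx4 ratio was not tested.

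Shares of cells with a UMI of Prdx4 come from the same counts that chose the genes and add no support. With GMP-like cells thinned to a common 2000 UMIs, the share in WT was 3.51% (1027 cells, exact binomial interval 2.47% to 4.82%). In cKO it was 7.72% (972 cells, interval 6.12% to 9.58%). Unthinned, at median depths of 33905 and 32005 UMIs, the shares were 31.9% and 56.8%. No class is known to lack Prdx4. The lowest share in the WT library among the 11 classes, 1.45% (0.63% to 2.85%), was that of basophil/mast-like cells at a median depth of 10475.5 UMIs, and in T/NK/ILC-like cells 5 of 312 WT and 8 of 321 cKO cells had a UMI. In the Prtn3 cluster 21 of 423 WT and 66 of 599 cKO cells had one at that depth. In the Fcnb-led cluster 1.16% and 0.804% had one, 7 and 3 cells, and a difference was not detectable at this depth.

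HSC/MPP-like cells had a Prdx4 ratio of 0.30 (0.16 to 0.44), over 2 clusters. In the cluster led by Mecom and Hlf, genes of the most primitive stem cells, Prdx4 was at 47.5 CPM in WT and 88.3 CPM in cKO, a log2 ratio of 0.90 (0.62 to 1.16). In the cluster led by Cd34 it was at 26.4 and 34.2 CPM, a ratio of 0.37 (0.21 to 0.54). This larger cluster held 61.5% of the WT and 87.0% of the cKO cells of the class. Its Mpo level was 6063 CPM in WT and 3976 CPM in cKO, against 1092 and 452 CPM in the Mecom-led cluster. Elane was at 3181 and 2185 CPM, against 161 and 59.4 CPM, and Hlf at 37.2 and 32.5 CPM, against 391 and 290 CPM. The Prtn3 cluster of GMP-like cells had Mpo at 7302 and 4748 CPM. All ratios given for HSC/MPP-like cells join these 2 HSC/MPP-like clusters, so they are not values of the most primitive stem cells alone. The Mecom-led cluster held 374 WT but only 83 cKO cells, and weighting the cKO clusters to the WT mix gave the class a ratio of 0.61.

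Prdx4 lies on the X chromosome, and the libraries differed in Xist, the RNA that silences 1 X chromosome in female cells. Xist was at 905 CPM in WT and 650 CPM in cKO, and at 680 and 469 CPM in GMP-like cells. Of 4 Y-linked genes, Ddx3y was at 2.8 and 3.4 CPM over all kept cells, while Uty had 15 UMIs in WT and 3 in cKO, Eif2s3y 5 and 0, and Kdm5d 4 and 1. The median log2 ratio of the 367 X-linked genes measured in GMP-like cells was −0.19, below the −0.12 of all genes. The part of X dosage in the Prdx4 ratios was not tested.

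**Figure D4:**
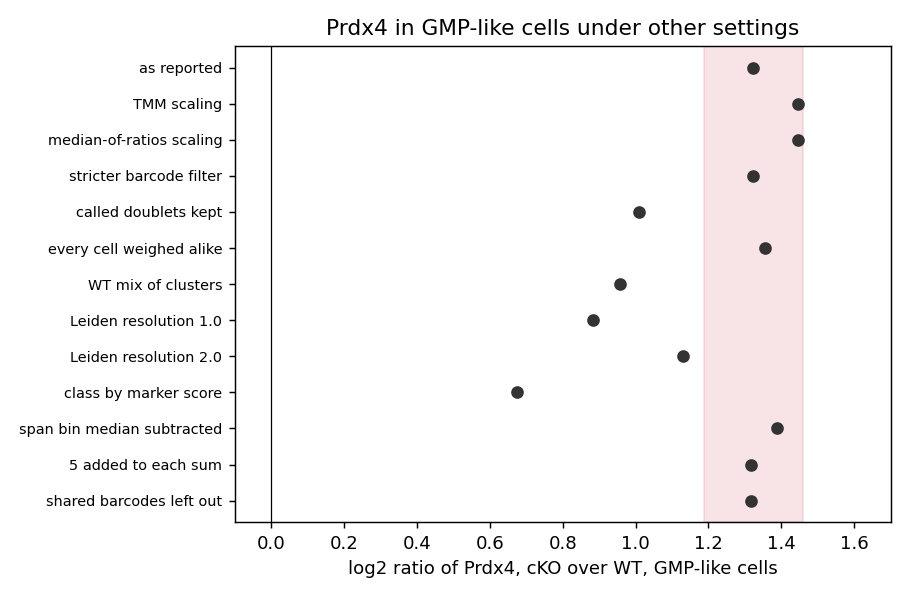
The log2 ratio of Prdx4 in GMP-like cells, cKO over WT (x axis), is plotted for each way of processing (y axis), with the shaded band for the 95% counting interval of the value as reported. All points lie above 0, from 0.67 with classes by marker score to 1.45 with median-of-ratios scaling.

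Txn1, which donates electrons to some of the peroxiredoxins, followed the myeloid lineage. It was highest in neutrophil-like cells, at 743 CPM in WT and 1053 CPM in cKO, followed by GMP-like cells at 633 and 674 CPM. The lowest level in WT, 156 CPM, was that of T/NK/ILC-like cells, and the lowest in cKO, 189 CPM, that of stromal/endothelial-like cells. Its ratio was above 0 in all 11 classes, with 10 intervals wholly above 0. The smallest, 0.09 (0.06 to 0.12), was found in GMP-like cells and the largest, 0.49 (0.40 to 0.58), in conventional dendritic-like cells, and in HSC/MPP-like cells it was 0.30 (0.27 to 0.34).

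Txnrd1, the selenoprotein that reduces Txn1, was at similar levels in both libraries. It was highest in megakaryocyte-like cells, at 137 CPM in WT and 153 CPM in cKO, then in HSC/MPP-like cells, at 122 and 113 CPM, and T/NK/ILC-like cells, at 119 and 143 CPM. Plasma-like cells were lowest, at 36.8 and 33.2 CPM. Its ratios ran from −0.12 to 0.27 with a median of 0.01, and 8 of the 11 intervals included 0. Under TMM scaling 9 of the 11 were above 0 in place of 6. In HSC/MPP-like cells, where Txn1 was higher in cKO, Txnrd1 was lower, with a log2 ratio of −0.11 (−0.18 to −0.03) that turned to 0.043 under TMM scaling.

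Related redox genes were taken in 6 lists. For all genes the shares higher and lower by the fold were 6.2% and 15.7% over all kept cells. In GMP-like cells they were 3.62% and 12.6%. Over all kept cells the partners of thioredoxin and peroxiredoxin split, with 1 of 17 higher and 5 lower by the fold (3 and 3 under TMM scaling). Txnl4a, a thioredoxin-like protein of the spliceosome, was higher, at 73.3 CPM in WT and 124 CPM in cKO, and Txnl1 stood at 238 and 331 CPM, a log2 ratio of 0.48. Sesn3, a sestrin, fell by 0.80 on the log2 scale and Map3k5, the kinase ASK1 that reduced thioredoxin holds inactive, fell by 0.77. Txnip, the inhibitor of thioredoxin, was at 35.3 and 39.9 CPM, but its ratio differed between classes. It was 1.33 (1.14 to 1.52) in megakaryocyte-like, 1.11 in T/NK/ILC-like and 0.64 in basophil/mast-like cells. In HSC/MPP-like cells it was −0.42 (−0.57 to −0.28). In GMP-like cells 1 of the 16 measured partners, Txnl4a with a log2 ratio of 0.78, was higher by the fold and 0 were lower (3 and 0 under TMM scaling), and Txnip stood at 18.0 and 16.0 CPM. Msra and Nxn had the lowest ratios there, −0.47 and −0.43.

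Of the 17 glutathione and glutaredoxin genes, the parallel route of peroxide removal, 1 was higher and 3 were lower over all kept cells (3 and 2 under TMM scaling). Gpx8 had 184 UMIs in WT and 331 in cKO, a log2 ratio of 0.90. Stromal/endothelial-like cells, 213 in WT and 377 in cKO, held 136 and 278 of these UMIs, at a ratio of 0.44 within the class. Gpx4, which removes lipid peroxides, was at 200 and 283 CPM, a ratio of 0.50 just under the fold. Mgst1 and the cystine carrier Slc7a11 had the lowest ratios, −1.12 and −0.82. Monocyte-like cells, 697 in WT and 253 in cKO, held 2568 of the 5954 WT and 523 of the 2644 cKO UMIs of Mgst1. Within that class its ratio was −0.70. The part of cell numbers in the Gpx8 and Mgst1 ratios was not tested. In GMP-like cells 0 of 15 were higher and 3 lower (1 and 3 under TMM scaling), among them Slc7a11 (−1.02) and Gsr, the glutathione reductase, at 586 CPM in WT and 370 CPM in cKO. Glrx3 (0.41) and Glrx5 (0.34) had the highest ratios there. Among the superoxide dismutases and catalase 0 of 4 passed the fold over all kept cells (1 higher under TMM scaling), where mitochondrial Sod2 (0.43) and Ccs (0.25) were highest and Cat (−0.25) and Sod1 (−0.15) lowest. Sod2 reached it in GMP-like cells, at 93.3 and 132 CPM, and Cat was lowest there, at −0.33.

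The NRF2 pathway genes were near the median of all genes over all kept cells and in GMP-like cells, but not in every class. Of 16 pathway genes 0 were higher and 2 lower over all kept cells, with a median of −0.13 beside −0.11 for all genes. Hmox1, the haem oxygenase, was at 10.5 CPM in WT and 1.4 CPM in cKO, and Slc7a11 was the other gene past the fold. Macrophage-like cells, a known site of Hmox1, numbered 157 in WT and 19 in cKO, and their part in the Hmox1 value was not tested. In HSC/MPP-like cells Hmox1 had 94 UMIs in WT and 17 in cKO, a log2 ratio of −1.93. The mix of clusters in that class differed between the libraries, and its part in this ratio was not tested. Gclm (0.32) and Srxn1 (0.31), the sulfiredoxin that repairs overoxidised peroxiredoxins, had the highest ratios. In GMP-like cells 0 of 13 were higher and 2 lower, Slc7a11 and Bach1 (−0.60), and Gclm (0.13) and Taldo1 (0.06) were highest. In megakaryocyte-like cells 5 of 13 were higher and 0 lower, where 10.3% of all genes were higher and 16.1% lower. Srxn1 (1.74, from 39 UMIs in WT and 143 in cKO) and Gclm (0.83) were highest there, and Abcc1 (−0.49) and Gclc (−0.41) lowest. The shallow Ppbp-led cluster held 22.0% of the WT and 49.7% of the cKO cells of that class. Its part in these ratios was not tested. In HSC/MPP-like cells 0 of 14 were higher and 3 lower, and in stromal/endothelial-like cells 0 of 11 and 3.

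Oxidative protein folding in the endoplasmic reticulum is the process Prdx4 serves. Its counts stand beside 6.2% of all genes higher and 15.7% lower over all kept cells, and 3.62% and 12.6% in GMP-like cells. Over all kept cells 0 of 26 genes were higher and 2 lower, Tmx4 (−0.80) and Ero1b (−0.65), and Txndc17 (0.37) and Erp29 (0.24) were highest. Txndc17 is itself a cytosolic thioredoxin-related protein. The median was −0.10, beside −0.11 for all genes. In GMP-like cells, where Prdx4 was at 18.0 and 45.1 CPM, 0 of 26 were higher and 2 lower, Tmx4 (−0.82) and Qsox1 (−0.51), with a median of −0.01 beside −0.12 for all genes. Under TMM scaling 1 was higher and 1 lower. Ratios above 0 were found for 13 of the 26 genes there. P4hb, a protein disulfide isomerase, was at 593 CPM in WT and 503 CPM in cKO in GMP-like cells, and Pdia6, another, at 463 and 563 CPM. The chaperone Hspa5 was at 1157 and 1158 CPM. Txndc5 (0.38) and Erp29 (0.37) had the highest ratios.

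Genes of oxidant production were mostly lower over all kept cells and in GMP-like cells. Of 8 measured genes of NADPH oxidase and other oxidant sources, 0 were higher and 5 lower over all kept cells, with a median of −0.83. Cybb, the catalytic subunit, was at 42.6 CPM in WT and 17.6 CPM in cKO, and Mpo, the neutrophil myeloperoxidase, at 2325 and 1210 CPM, while Cyba (−0.27) and Rac2 (−0.31) had the highest ratios. In GMP-like cells 3 of 7 were lower and 0 higher, with Mpo at 8674 and 5533 CPM and Ncf1 at 150 and 100 CPM, and Ncf4 (0.10) and Cyba (−0.12) were highest. The list median was 0.01 in megakaryocyte-like cells, where Cyba was at 0.68, and 0.20 in T/NK/ILC-like cells. In the other classes it ran from −0.67 in erythroblast-like to −0.09 in conventional dendritic-like cells. Monocyte-like cells, which express these genes, numbered 697 in WT and 253 in cKO, and GMP-like cells 1037 and 975. The part of cell numbers was not tested.

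**Figure D5:**
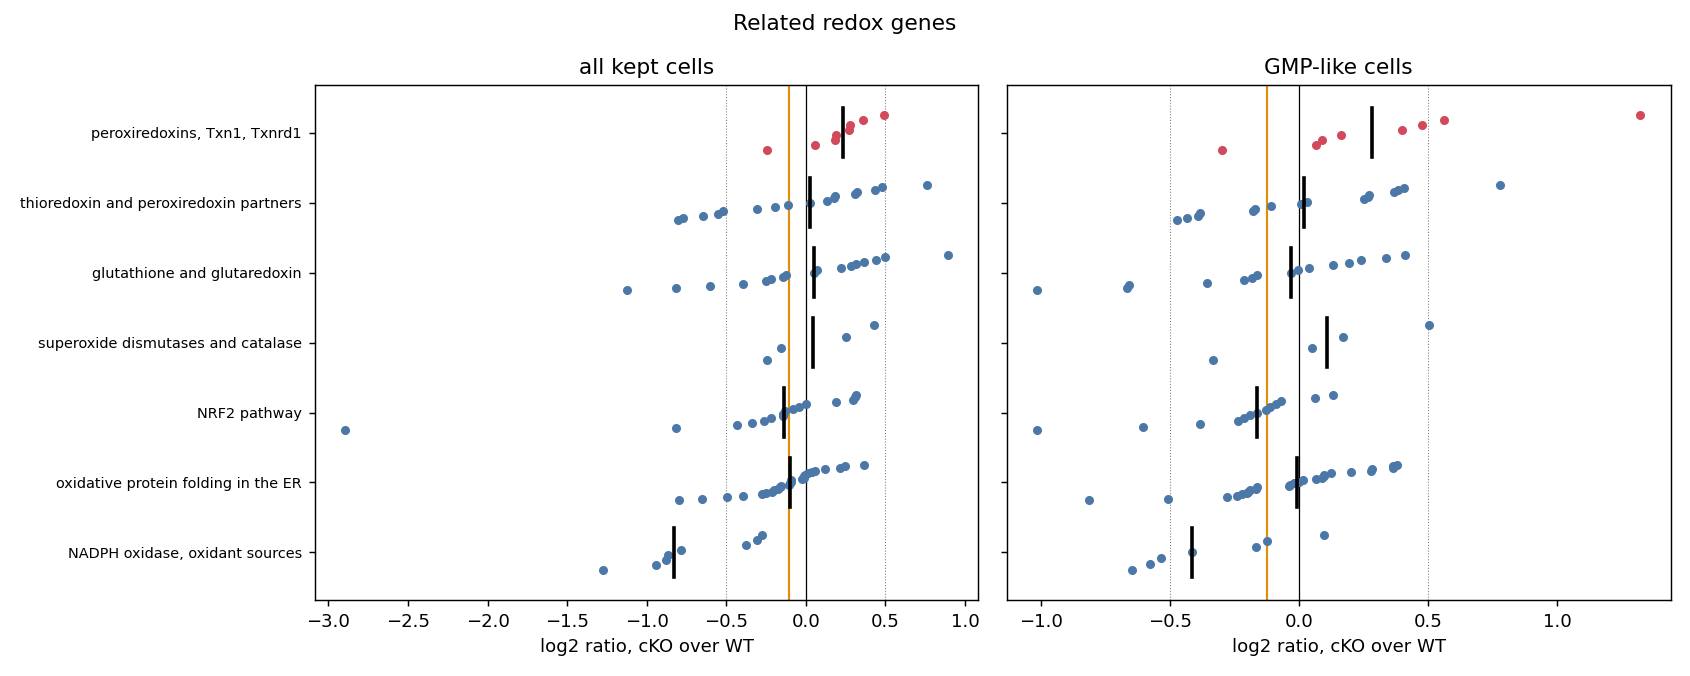
Points are genes with at least 100 UMIs, with the log2 ratio of cKO over WT on the x axis and the list on the y axis, over all kept cells (left) and in GMP-like cells (right). Black bars are list medians, the orange line the median of all genes, and dotted lines mark −0.5 and 0.5. The 8 members (red) have medians of 0.23 and 0.28, and the oxidant sources lie lowest, at −0.83 and −0.42.

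The genes whose levels were most like those of each member were ranked by Pearson's r of log2(CPM + 1) over the same 22 values, among 7187 genes. For Prdx4 they were Kctd14 (0.87), Smc6 (0.84), Rgs10 (0.84), Tifa (0.81) and Ifi30 (0.81). Prdx2 was most like Glrx5 (0.98), Orc2 (0.97) and Urod (0.97), of which Glrx5 serves iron-sulfur cluster assembly and Urod haem synthesis, and Prdx3 like Tmem33, Bola3 and Ifrd2 (0.97, 0.97 and 0.96). For Prdx1 they were Fabp5, Sap30 and Dctpp1 (0.97, 0.96 and 0.96), and those near Txn1 included Ndufb6 and the ribosomal protein gene Rpl28 (each 0.98). Prdx5 was most like Krtcap2, Pdia3 and Lamtor4 (0.95, 0.94 and 0.94), Prdx6 like Srpk1, Rcl1 and Nelfb (0.90, 0.86 and 0.85), and Txnrd1 like Dtd1, Ubash3a and Pfkl (0.85, 0.82 and 0.80). Between the members themselves, Prdx1 and Txn1 had an r of 0.84 and Prdx2 and Prdx5 an r of −0.58.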

How the data were processed

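The deposited tables hold UMI counts of each gene in each barcode, made by the authors. Per the submitters' processing notes, Cell Ranger 7.1.0 and mouse mm39 were used. The sources used here give neither the gene annotation nor how cells were called. The members and lists were chosen with earlier results of these data known.

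Barcodes passed with 1000 or more UMIs, 500 or more genes and no more than 10% of UMIs mitochondrial (12537 WT, 11239 cKO). Scrublet (expected share 8%) removed 592 and 544 doublets. Both libraries were clustered together with scanpy 1.11.5 (2000 variable genes, 30 components, 15 neighbours, Leiden resolution 1.5), without the members and redox genes. Of 42 clusters, 31 were named. Each took the class with most markers among its 10 leading genes or, in 5 clusters with none there, the one whose list was detected most completely at 2-fold, always with at least 3 detected. A cluster stayed unnamed if a class with fewer than 3 detected had more leading markers, or if it had no leading marker and its median UMIs were under 1/3 of the library's in both libraries. Of those 5 clusters, 2 (basophil/mast-like, stromal/endothelial-like) were under it in 1 library. By a rule set after seeing the clusters, 2 with markers of 2 classes alike (90 and 179 WT, 243 and 69 cKO cells) stayed unnamed.

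UMIs were summed per class and scaled by total to CPM. Log2 ratios had 0.5 added to each sum and exact conditional binomial intervals; levels had exact Poisson and shares exact binomial intervals (scipy 1.17.1). The fold for calls was 0.5 (log2) and the floor 100 UMIs. Named genes are the members, the 2 highest and 2 lowest of each list in all kept and GMP-like cells, Mpo, P4hb, Pdia6, Hspa5 and Txnip, and the nearest genes by correlation. The ratio step was run on simulated counts that hold counting error only, so the run cannot show how mice or libraries differ. Rows of member pseudogenes held at most 105 UMIs (Prdx2-ps1, cKO). One gene near Txn1 by correlation is not reported here.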

Additional observations from a re-analysis of the deposited data

Results flagged for a closer look

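Of the 8 genes, 3 had ratios of cKO over WT that lay below 0 in some classes and above 0 in others, with intervals for counting error that exclude 0 on both sides. With 1 library per genotype the difference between classes was not tested. Prdx5 had a log2 ratio of −0.30 in GMP-like and 0.47 in megakaryocyte-like cells. Both libraries had cells in the Pf4 and the Ppbp-led cluster of the megakaryocyte-like class, but in different shares (Prdx5 ratios 0.42 and −0.32). Prdx6 had −0.083 in basophil/mast-like and 0.29 in stromal/endothelial-like cells. Txnrd1 had −0.11 in HSC/MPP-like and 0.27 in T/NK/ILC-like cells, but under TMM scaling the HSC/MPP value was 0.043 and the signs no longer differed.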

How the results depend on the processing

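No paired analysis was possible because each genotype has 1 library. The log2 ratio of Prdx4 in GMP-like cells was 1.01 with called doublets kept, 0.96 with the WT mix of clusters, 0.88 and 1.13 at Leiden resolutions 1.0 and 2.0, and 0.67 with classes by marker score. The median of the 8 genes over all kept cells was 0.34 under both TMM and median-of-ratios scaling and 0.27 less the median of genes of like span (GENCODE vM21). In GMP-like cells it was 0.40 and 0.41 under those scalings, 0.35 less the span median, 0.22 with doublets kept and 0.23 at resolution 2.0. Over all kept cells 1 member passed the fold under either scaling, after the span correction or with every cell weighed alike, and 2 passed a fold of 0.3. Over 15 alternatives, 1081 of 1132 single ratios kept the sign of the reported value and 51 did not, and 267 lay outside its counting interval. None that had passed the fold changed sign. Leaving out the 2 shallow clusters named without a leading marker gave a Prdx4 ratio of 0.47 in stromal/endothelial-like cells and kept all 16 ratios of both classes inside their counting intervals. That choice, leaving out shared barcodes and joining the unnamed cluster with Car1 to the erythroid progenitors were chosen after seeing the data. The percent of genes higher past the fold, all kept cells taken, was 9.88% at a floor of 20 UMIs and 4.07% at 500 UMIs, and the percent of genes higher past the fold, GMP-like cells taken, was 6.61% at 20 UMIs. Under TMM scaling 1 NRF2 gene and 1 oxidant source were lower by the fold in GMP-like cells in place of 2 and 3. The cause of these differences was not tested. Depth limits Prdx4 in T/NK/ILC-like cells, with 34 and 30 UMIs.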
